A study of Mus musculus with 9 samples.

Results

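Oxidative phosphorylation was followed through the transcripts of its subunits, nuclear and mitochondrial, in bulk RNA of mouse labial mucosa. Members were all gene symbols of the Nduf, Sdh, Uqcr, Cox4 to Cox8 and Atp5 families, with 8 complex I assembly factors among them, and the 13 protein genes of mitochondrial DNA. Atp5e and 9 symbols with a pseudogene mark were left out of the 119 that matched. This gave 109 members among 55342 gene names, 96 nuclear and 13 mitochondrial. Of these, 91 nuclear and all 13 mitochondrial members had enough counts to be tested, among 16523 genes. The 5 others, Cox6c2, Cox7b2, Cox8c, Ndufa11b and Ndufs6b, stayed at or below 0.232 CPM (read counts put on 1 scale across libraries) in every library.

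Each of 3 mouse strains, named B6, Tac111 and Tac146 in the labels, gave 3 libraries. Per the labels, all mice had been infected before the biopsy, and neither the agent nor the dose or timing is given in the sources used here. The genotypes behind the strain names, the ages and whether each library is a separate animal are likewise not given in the labels. P-values therefore measure the spread between these libraries, which may be technical. The labels call the B6 cells type 1 innate lymphoid cells (ILC1) and the Tac111 and Tac146 cells T cells, and in comparisons with B6 the strain cannot be told apart from the cell type on the label.

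The defining markers of the labelled cells were scarce. For a list of 14 T cell genes, the B6 libraries gave 0.00239 to 0.00293% of their counts. The Tac111 libraries gave 0.00170 to 0.00186% and the Tac146 libraries 0.00175 to 0.00191%. It was thus highest in the libraries labelled ILC1 and lower, without overlap, in those labelled T cells, which goes against the labels. Of its 12 tested genes, 6 were called lower in Tac111 and 4 in Tac146 against B6 by edgeR. Among all 16523 tested genes, 462 and 18 were called lower. The 13 ILC1 and natural killer cell genes took 0.00144 to 0.00191% in B6 and 0.00163 to 0.00208% in Tac146, with overlap. They were lowest in the 3 Tac111 libraries, at 0.000103 to 0.000150%. Of the 9 tested, edgeR called 7 lower in Tac111 against B6 and 7 in Tac111 against Tac146. In the latter comparison 1036 of all tested genes were called lower. In Tac146 against B6, 0 of the 9 were called. Upper layer keratinocyte genes took 8.09 to 11.7% and skeletal muscle genes 2.65 to 5.13%. Total expected counts ran from 27192359 to 46456500 per library. In bulk RNA, fewer cells of a type and less RNA per cell cannot be told apart.

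Oxidative phosphorylation passes electrons from NADH and succinate through complexes I to IV of the inner mitochondrial membrane to oxygen, and complex V uses the resulting proton gradient to make ATP. Complex II is built from nuclear genes alone, whereas the other complexes combine nuclear subunits with subunits made inside the organelle. Skeletal muscle is rich in mitochondria and uses its own isoforms of several complex IV subunits.

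Part of the mitochondrial genome has a near-identical copy on chromosome 1. The share of reads given to it bears on the levels of the mitochondrial members that lie in that part. The sequences below come from GENCODE M21 transcripts (GRCm38), and capitals mark the bases at which gene and copy differ. The mt-Nd3 start (chrM:9459-9518, plus strand) is set beside Gm28438 (chr1:24613060-24613119, minus strand). A stretch of mt-Co1 (chrM:6381-6440, plus strand) is set beside Gm29216 (chr1:24616138-24616197, minus strand). The end of mt-Co2 (chrM:7634-7693, plus strand) is set beside Gm28661 (chr1:24614885-24614944, minus strand), where no base differs.
mt-Nd3: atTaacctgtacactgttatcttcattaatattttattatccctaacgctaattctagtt
Gm28438: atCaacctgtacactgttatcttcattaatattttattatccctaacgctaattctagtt
mt-Co1: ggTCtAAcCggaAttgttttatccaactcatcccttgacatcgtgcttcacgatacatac
Gm29216: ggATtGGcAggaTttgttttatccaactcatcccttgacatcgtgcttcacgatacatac
mt-Co2: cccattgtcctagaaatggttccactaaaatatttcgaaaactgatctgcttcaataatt
Gm28661: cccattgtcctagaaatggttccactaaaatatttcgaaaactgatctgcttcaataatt

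Over their full overlaps, mt-Co2 and Gm28661 shared 681 of 681 bases, and mt-Atp6 (678 bases), mt-Co3 (783), mt-Nd4l (294) and the overlapping part of mt-Nd4 (876) were also identical to their copies. The mt-Nd3 pair differed at T3C alone, counted from 1 at the start of the mitochondrial transcript. The mt-Co1 pair differed at T1056A, C1057T, A1059G, A1060G, C1062A and A1066T. A read that lies inside an identical stretch cannot be assigned by its sequence.

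Across the 3 strains, the nuclear members were ordered with Tac111 highest and Tac146 lowest. In order of replicate number (1 to 3 in B6 and Tac111, 2 to 4 in Tac146), they took 1.88, 1.62 and 1.60% of all counts in B6. Their share was 1.85, 1.84 and 2.22% in Tac111, and 1.63, 1.58 and 1.27% in Tac146. Values below follow the same order. The B6 and Tac111 ranges overlapped, as did those of B6 and Tac146, while every Tac111 library lay above every Tac146 library. Of the 91 tested nuclear members, 85 had their highest level in Tac111 replicate 3 and 84 their lowest in Tac146 replicate 4.

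**Figure D1:**
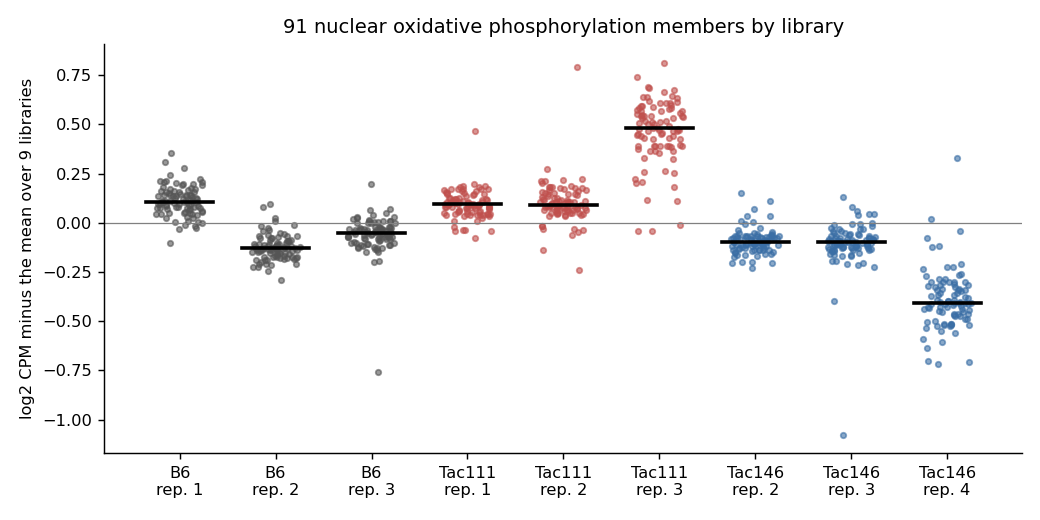
Each point is 1 of the 91 tested nuclear members, as log2 CPM minus that member's mean over the 9 libraries, by library, and black bars are medians. The median is 0.48 in Tac111 replicate 3 and -0.40 in Tac146 replicate 4, while the other 7 libraries lie between -0.13 and 0.11.

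In Tac111 against Tac146, 20 of the 91 nuclear members were called higher and 0 lower (edgeR's quasi-likelihood test, Benjamini-Hochberg adjusted p under 0.05). Over all genes 8.89% were called in either direction and 2.62% higher. The log2 fold change was above 0 for 89 of the 91 members with a median of 0.45, against 0.02 over all genes. All 3 Tac111 libraries lay above all 3 Tac146 libraries for 81 members, against 17.1% of all genes. The count of calls changed with the libraries in the fit, also where the fold changes did not fall. It fell to 0 when Tac111 replicate 2 was left out, and to 0 when Tac111 replicate 3 was. Leaving out Tac146 replicate 3, Tac146 replicate 4 or B6 replicate 2 gave 1 call. Leaving out B6 replicate 3 gave 2, B6 replicate 1 gave 5, and Tac146 replicate 2 gave 13. The B6 libraries enter here through the shared estimate of spread. The median log2 fold change stayed at 0.45 without B6 replicate 1, 2 or 3. It was 0.50 to 0.53 without Tac111 replicate 1 or 2 or Tac146 replicate 2 or 3. Without Tac146 replicate 4 it was 0.34, and without Tac111 replicate 3 it was 0.30. With Tac111 replicate 3 and Tac146 replicate 4 both left out, it was 0.20 with 87 members above 0.

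Against B6, no nuclear member was called in either strain by edgeR. In Tac111 the log2 fold change was above 0 for 88 of 91 members with a median of 0.26, and 23 members (25.3%) had an unadjusted p under 0.05, close to the 21.8% of all genes. All 3 Tac111 libraries lay above all 3 B6 libraries for 29 members, where 13.7% of all genes did so and 3.81% of all genes were called. DESeq2 called 3 members here, Cox6c, Ndufaf4 and Ndufaf7, and over all genes 1171 of the 17421 to which it gave an adjusted p. In Tac146 the value was below 0 for 86 members with a median of -0.18, and 1 member had an unadjusted p under 0.05, against 6.96% of all genes. All 3 Tac146 libraries lay below all 3 B6 libraries for 5 members, where 6.29% of all genes did so and 0.303% were called. DESeq2 called 0 members, and 126 of 21970 genes over all. The 3 comparisons share libraries, so they are not separate evidence for the order of the strains.

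**Figure D2:**
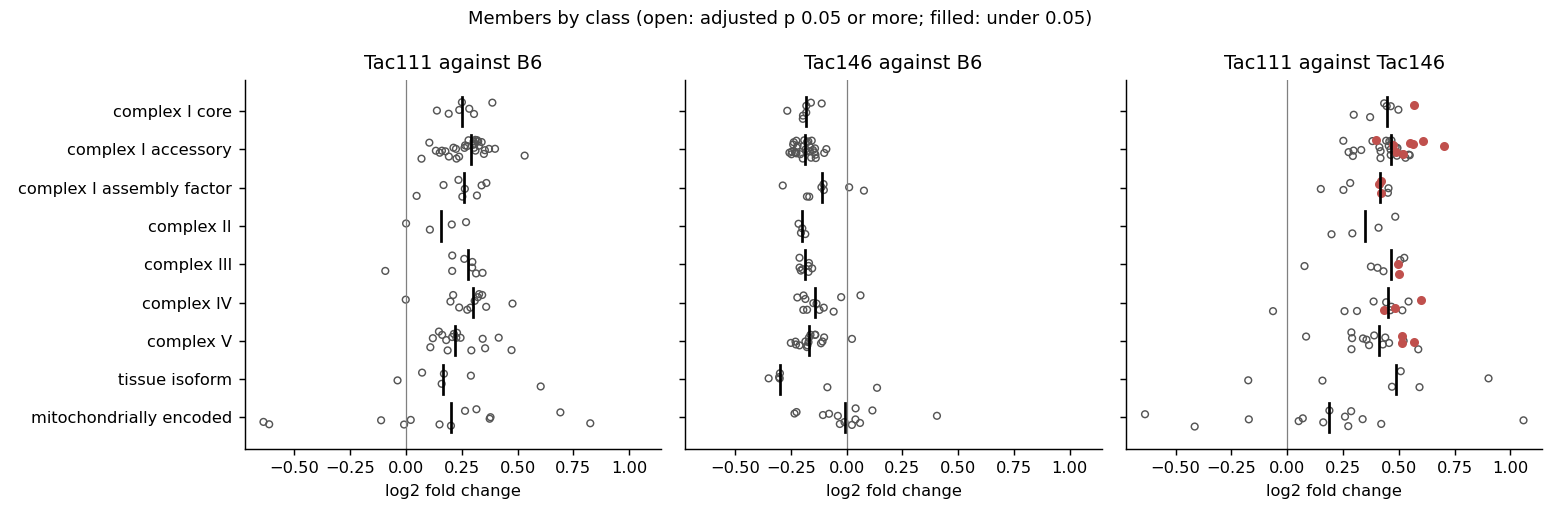
Log2 fold changes of the tested members by class in the 3 comparisons, with 1 point per gene and black bars at class medians. Filled points have an adjusted p under 0.05, and all 20 of them lie in Tac111 against Tac146 among nuclear members of complexes I, III, IV and V and the complex I assembly factors.

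Complex I, the NADH dehydrogenase, and its assembly factors held 12 of the 20 calls. Its core subunits carry the redox centres, and 1 of 7 was called. Ndufs7, a core iron-sulfur subunit, was at 137.3, 127.0 and 184.6 CPM in Tac111 and at 115.6, 104.6 and 82.2 in Tac146, with 129.7, 110.1 and 123.6 in B6. The Tac111 and Tac146 ranges did not overlap, and the log2 fold change was 0.57 ± 0.16 (SE, edgeR adjusted p = 0.0499). Ndufv1, which binds NADH and FMN, had a log2 fold change of 0.46 ± 0.13 (edgeR adjusted p = 0.0539).

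Among the accessory subunits of complex I, which surround the core, 8 of 30 were called. Ndufa5 was at 92.3, 104.3 and 151.6 CPM in Tac111, 77.5, 79.2 and 57.3 in Tac146, and 88.0, 77.5 and 75.3 in B6. Its log2 fold change of 0.70 ± 0.18 (edgeR adjusted p = 0.0422) was the largest among the 20 called members. Ndufc2, a membrane arm subunit, was at 59.7, 63.2 and 80.5 CPM in Tac111 and at 50.4, 49.9 and 38.8 in Tac146, a log2 fold change of 0.55 ± 0.14 (edgeR adjusted p = 0.0417). Ndufs6, a zinc-binding subunit, was at 103.4, 107.5 and 141.6 CPM in Tac111 and at 86.5, 88.2 and 79.1 in Tac146. The log2 fold change was 0.47 ± 0.12 (edgeR adjusted p = 0.0431). Each of these ranges was free of overlap, and in each the gap between strains was widest from Tac111 replicate 3 to Tac146 replicate 4. The other called accessory subunits were Ndufs4, Ndufb5, Ndufa8, Ndufb10 and Ndufc1. Ndufb9 had the highest level per length of this class, 280.4 CPM per kb.

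The assembly factors, which help to build complex I but are not part of it, held 3 calls among 8. Ndufaf4 (chr4:24898083-24905001) had the smallest p of all members. Its levels were 22.9, 23.2 and 24.9 CPM in Tac111, 18.4, 18.3 and 16.4 in Tac146, and 19.5, 19.2 and 18.2 in B6. Every Tac111 library lay above the 6 others, and its range within Tac111 was narrow. The log2 fold change was 0.42 ± 0.08 against Tac146 (edgeR adjusted p = 0.0168) and 0.32 ± 0.08 against B6 (edgeR adjusted p = 0.0677). It was the lone member called when B6 replicate 2, Tac146 replicate 3 or Tac146 replicate 4 was left out, and in a fit to the 6 libraries compared. Ndufaf1 was at 21.2, 24.0 and 26.9 CPM in Tac111 and at 19.4, 17.8 and 16.7 in Tac146, a log2 fold change of 0.42 ± 0.10 (edgeR adjusted p = 0.0359). The third was Ndufaf3. These factors were low, with at most 14.3 CPM per kb (Ndufaf1).

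Complex II, the succinate dehydrogenase shared with the citric acid cycle, had 0 of 4 members called. By edgeR, 3 of the 4 had an unadjusted p under 0.05 in Tac111 against Tac146, where 30.9% of all genes did, and every one had Tac111 above Tac146 without overlap. Sdhb, its iron-sulfur subunit, was at 200.6, 195.6 and 251.8 CPM in Tac111 and 167.2, 170.9 and 125.3 in Tac146, a log2 fold change of 0.48 ± 0.14 (edgeR adjusted p = 0.0549). Sdhd, a membrane anchor, had a log2 fold change of 0.41 ± 0.14 (edgeR adjusted p = 0.0768).

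Complex III, the cytochrome bc1 complex, had 2 of 8 members called. Uqcr10 was at 150.3, 148.6 and 192.3 CPM in Tac111 and at 117.6, 126.4 and 103.0 in Tac146, with a log2 fold change of 0.50 ± 0.13 (edgeR adjusted p = 0.0383). Uqcrb was at 179.3, 199.1 and 250.6 CPM in Tac111 and at 153.3, 159.1 and 133.3 in Tac146, with 0.50 ± 0.13 (edgeR adjusted p = 0.0404). Uqcrc2, a large core protein of the complex, stood apart, at 283.4, 266.1 and 272.3 CPM in Tac111 and 258.2, 285.7 and 234.8 in Tac146, with overlapping ranges. It was chosen after its values were seen. Uqcrh had the highest level per length, 621.2 CPM per kb.

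Complex IV, the cytochrome c oxidase, had 3 of 12 ubiquitous members called. Cox6c was at 310.3, 313.8 and 442.6 CPM in Tac111, 248.6, 247.1 and 208.9 in Tac146, and 276.1, 241.9 and 248.3 in B6. Every Tac111 library lay above the 6 others. The log2 fold change was 0.60 ± 0.14 against Tac146 (edgeR adjusted p = 0.0327) and 0.48 ± 0.14 against B6 (edgeR adjusted p = 0.0982). Cox7b was at 225.5, 236.4 and 297.1 CPM in Tac111 and 185.7, 200.1 and 156.6 in Tac146, a log2 fold change of 0.48 ± 0.13 (edgeR adjusted p = 0.044). The third was Cox5b. Ndufa4, named as a complex I subunit but now placed in complex IV, had the highest level per length of this class, 873.1 CPM per kb.

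Complex V, the ATP synthase, had 3 of 16 members called, Atp5mpl, Atp5k and Atp5h. Atp5mpl was at 93.6, 103.1 and 136.8 CPM in Tac111 and 80.9, 81.9 and 70.5 in Tac146, a log2 fold change of 0.52 ± 0.14 (edgeR adjusted p = 0.0464). Atp5k, the membrane subunit e, was at 192.4, 193.1 and 284.2 CPM in Tac111 and 155.7, 162.6 and 132.9 in Tac146, a log2 fold change of 0.57 ± 0.16 (edgeR adjusted p = 0.0495). The catalytic beta subunit Atp5b had the highest level per length of the nuclear members, 886.5 CPM per kb, and a smaller log2 fold change of 0.29 ± 0.11 (edgeR adjusted p = 0.117). The 3 genes for the same membrane c subunit kept similar proportions. Atp5g3 made up 47.7 to 50.1% of their summed CPM, Atp5g1 28.3 to 31.8% and Atp5g2 20.2 to 24.0%, with the highest Atp5g2 share in Tac146 replicate 4.

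Muscle-type isoforms of complex IV were abundant in every library, and 0 of the 6 tested tissue isoforms were called by edgeR in any comparison. An unadjusted p under 0.05 was found for 4 of the 6 in Tac111 against Tac146, and for 30.9% of all genes. Cox6a2, the heart and skeletal muscle form of subunit 6a, was at 307.7, 277.1 and 372.0 CPM in Tac111, 249.0, 257.1 and 166.4 in Tac146, and 312.4, 265.5 and 278.3 in B6. The Tac146 libraries lay below both other strains. Cox8b was at 165.3, 153.4 and 230.3 CPM in Tac111, 134.7, 139.3 and 90.1 in Tac146, and 170.8, 140.7 and 137.2 in B6. Their log2 fold changes in Tac111 against Tac146 were 0.51 ± 0.17 (edgeR adjusted p = 0.0754) and 0.59 ± 0.19 (edgeR adjusted p = 0.0717).

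Shares within isoform pairs set Tac146 replicate 4 apart. Cox6a2 made up 64.6% of the Cox6a1 and Cox6a2 sum in that library and 72.6 to 75.9% in the 8 others. Cox7a1, the muscle form of subunit 7a, made up 41.7% of its pair with Cox7a2 there and 47.5 to 51.9% elsewhere. Cox8b made up 52.8% of its pair with Cox8a there and 61.8 to 72.9% elsewhere. The skeletal muscle list was lowest in the same library, at 2.65% of the counts against 4.03 to 5.13% in the others. The fibroblast list (0.146%), the adipocyte list (0.0288%) and the macrophage list (0.0174%) were also lowest there. Without that library, the muscle list ranged from 4.03 to 4.16% in Tac146 and from 4.50 to 4.82% in Tac111.

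Cox7a1 was at 143.0, 138.5 and 192.9 CPM in Tac111, 127.3, 133.6 and 81.8 in Tac146, and 163.1, 128.0 and 130.5 in B6. Its partner Cox7a2 was at 152.3, 153.3 and 212.1 CPM in Tac111, 128.2, 133.6 and 114.2 in Tac146, and 151.0, 126.3 and 135.3 in B6. Tac111 lay above Tac146 in both without overlap.

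Among the ubiquitous forms, Cox8a was at 77.2, 72.2 and 85.6 CPM in Tac111, 83.4, 81.8 and 80.4 in Tac146, and 85.0, 70.3 and 79.8 in B6, with overlap in all 3 comparisons. Cox6a1 was at 97.7, 103.7 and 129.6 CPM in Tac111 and 94.2, 91.5 and 91.3 in Tac146. Ndufa4l2, a paralogue of Ndufa4 known for its induction in low oxygen, was highest in Tac146 replicate 4, at 80.6 CPM against 52.4 to 73.4 in the 8 others. Cox4i2, the lung-type form of subunit 4, stayed between 1.14 and 1.75 CPM, or 0.255 to 0.402% of its pair with Cox4i1.

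**Figure D3:**
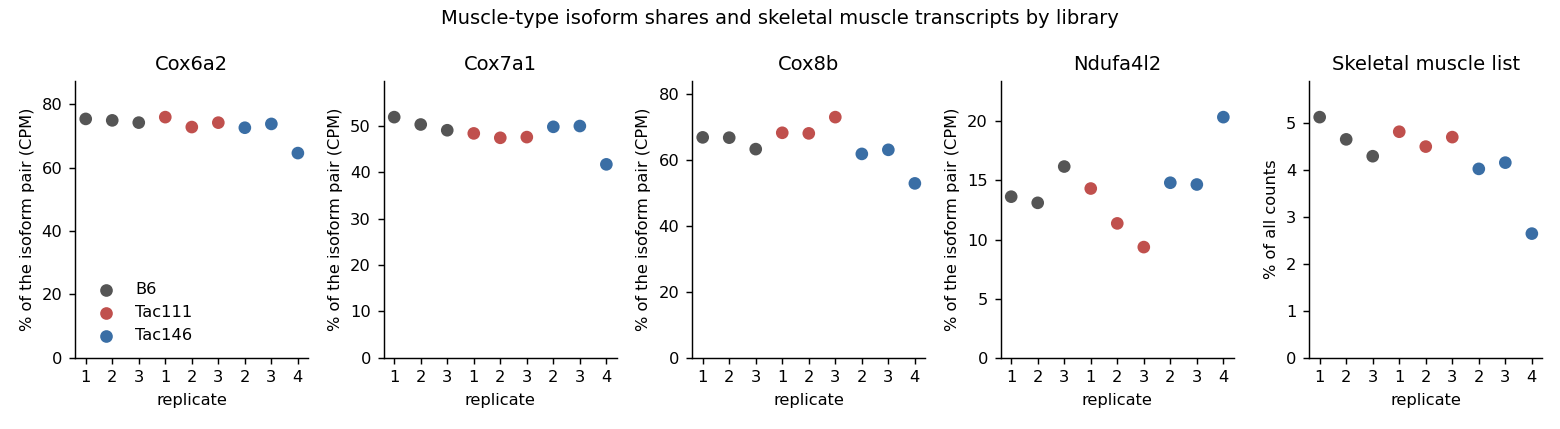
The left 4 panels give each named isoform as a percentage of the summed CPM of its pair (Cox6a2 with Cox6a1, Cox7a1 with Cox7a2, Cox8b with Cox8a, Ndufa4l2 with Ndufa4), and the right panel the skeletal muscle list as a percentage of all counts, per library. Tac146 replicate 4 is lowest for Cox6a2 (64.6%), Cox7a1 (41.7%), Cox8b (52.8%) and the muscle list (2.65%), and highest for Ndufa4l2 (20.4%).

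Cell type lists and transcript length were set beside the nuclear members. The muscle list averaged 4.69 ± 0.42% in B6, 4.67 ± 0.16% in Tac111 and 3.61 ± 0.84% in Tac146 (SD, n = 3). The B6 and Tac111 averages differed by less than either SD, while the members averaged 1.70 ± 0.16% in B6 and 1.97 ± 0.21% in Tac111. Its highest value was in B6 replicate 1, at 5.13%. Of the 20 skeletal muscle genes, 18 were tested, and 2 were called higher in Tac111 against Tac146 with a list median of 0.50. In that comparison 2.62% of all genes were called higher. In Tac111 replicate 3, where members were highest, the muscle list took 4.70%, within the 4.50 to 4.82% of Tac111 as a whole. All 10 fibroblast genes had values below 0 in Tac146 against B6, with a median of -0.27 and 0 called. Of 10 endothelial genes, 7 were called lower in Tac111 against B6 and 6 in Tac111 against Tac146 by edgeR. Among all 16523 tested genes, 462 and 1036 were called lower in these comparisons. Nuclear members have short transcripts, with a median of 746 bases against 2660 over all tested genes, and 63.3% against 8.83% were under 1 kb. All tested genes under 1 kb had a median deviation from their 9-library mean of 0.29 in Tac111 replicate 3 and -0.13 in Tac146 replicate 4 on the log2 scale. In B6 replicate 2 such genes were at -0.13 as well, where the members were at -0.13, against -0.40 for the members in Tac146 replicate 4. Genes of 3 kb or more were at -0.17 in Tac111 replicate 3, 0.10 in Tac146 replicate 4 and 0.06 in B6 replicate 2.

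Genes under 1 kb had, in Tac111 against Tac146, a median log2 fold change of 0.25 over all tested genes and 0.47 over 57 members. From 1 to 3 kb these medians were 0.09 and 0.41, the latter over 32 members. In Tac111 against B6 they were 0.20 over all tested genes and 0.28 over members under 1 kb, and 0.07 and 0.23 from 1 to 3 kb. In Tac146 against B6 they were -0.04 and -0.18 under 1 kb, and -0.01 and -0.17 from 1 to 3 kb. The part of cell type content and of transcript length in the result was not tested.

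**Figure D4:**
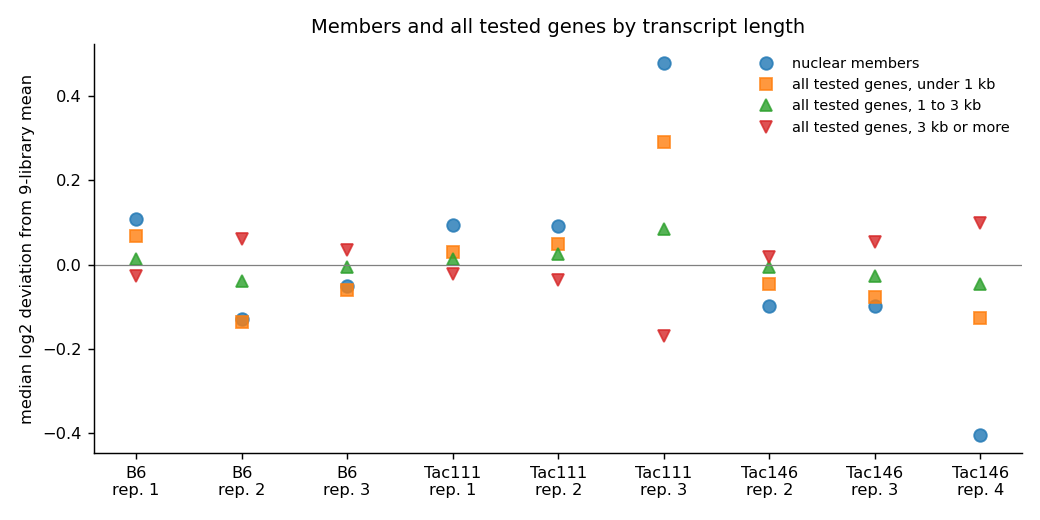
Median log2 deviation from the 9-library mean, per library, for the nuclear members and for all tested genes in 3 ranges of transcript length. Members and genes under 1 kb are both highest in Tac111 replicate 3 (0.48 and 0.29), and genes of 3 kb or more are lowest there (-0.17).

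The mitochondrial members took 5.53, 5.95 and 5.31% of the counts in B6, 7.41, 6.36 and 5.97% in Tac111, and 6.02, 5.63 and 5.16% in Tac146. With the chromosome 1 copies added, these became 8.56, 8.90 and 8.02% in B6, 10.9, 9.97 and 10.3% in Tac111, and 9.32, 8.64 and 7.68% in Tac146. The sum was higher in each Tac111 library than in the 6 others, whereas the members alone overlapped between Tac111 and Tac146. No mitochondrial member was called by edgeR in any comparison, with 6, 0 and 3 of 13 at an unadjusted p under 0.05 in Tac111 against B6, Tac146 against B6 and Tac111 against Tac146. Over all genes these shares were 21.8, 6.96 and 30.9%. The 6 of 13 (46.2%) thus lay above the background and the 3 of 13 (23.1%) below it. DESeq2 called 3, 0 and 3, and over all genes 1171 of 17421, 126 of 21970 and 2568 of 16916.

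Most of the summed counts of 5 pairs had been assigned to the copy. It received 95.0 to 96.0% for mt-Co2, 91.5 to 93.7% for mt-Atp6, 81.9 to 89.0% for mt-Nd3, 72.1 to 91.5% for mt-Co3 and 62.1 to 75.0% for mt-Nd4l. For mt-Co1 it received 9.97 to 20.5%, and for mt-Nd4 0.176 to 0.474%. Levels of these genes alone are therefore uncertain. Per length and with the copy, mt-Co1 was highest at 19669 CPM per kb, followed by mt-Co2 at 14822 and mt-Co3 at 14282. Without the copy, mt-Co2 would stand at 681.1 CPM per kb.

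**Figure D5:**
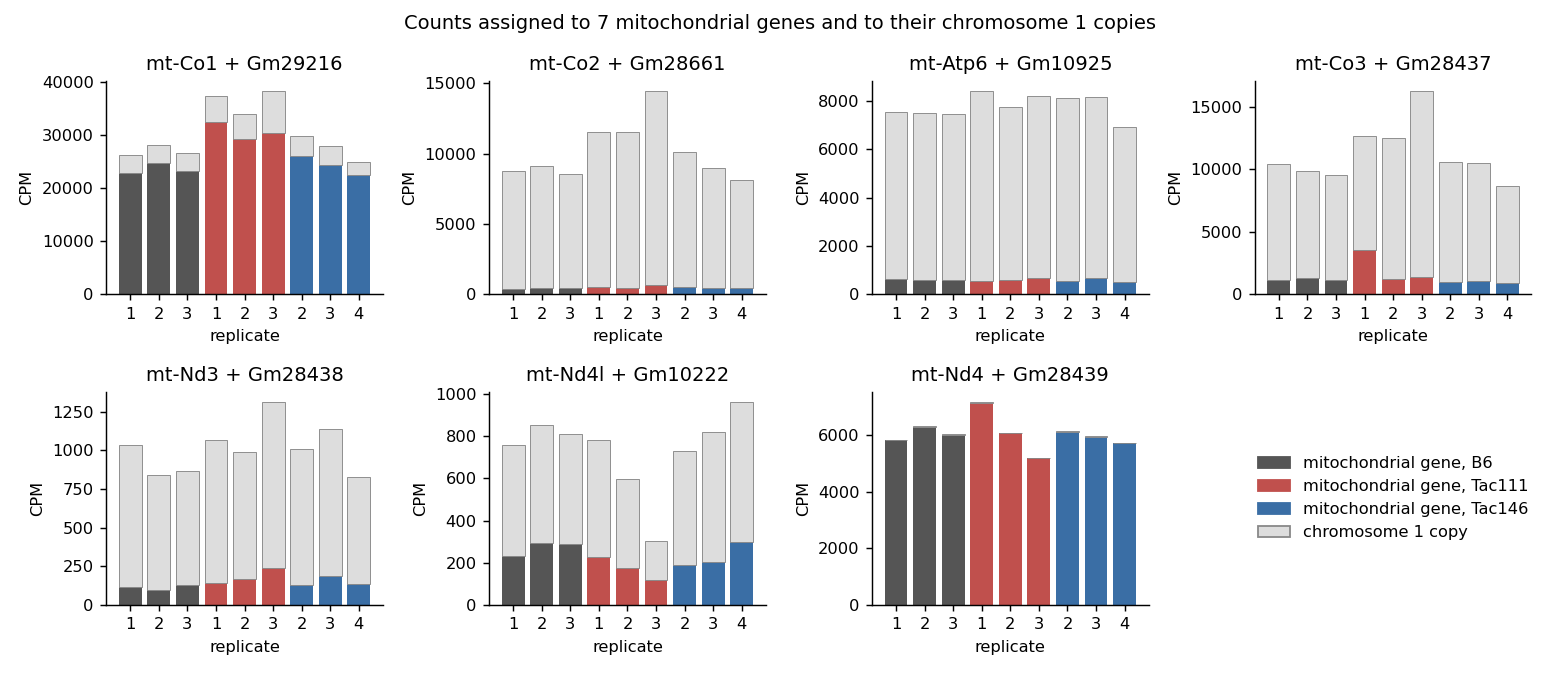
CPM assigned to 7 mitochondrial genes (coloured by strain) and to their chromosome 1 copies (grey, stacked), per library, on linear axes that differ between panels. For mt-Co3 the assigned part in Tac111 replicate 1 is 3533 CPM, against 914.1 to 1387 in the 8 other libraries, while the stacked sum there (12638) is close to that of Tac111 replicate 2 (12468).

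The complex IV subunits made in mitochondria had the highest levels per length with the copy, as given above. The catalytic subunit mt-Co1 was at 32539, 29199 and 30463 CPM in Tac111, 26040, 24443 and 22449 in Tac146, and 22775, 24819 and 23316 in B6. Tac111 did not overlap with either strain, and the log2 fold change was 0.38 ± 0.15 against B6 (edgeR adjusted p = 0.192) and 0.34 ± 0.15 against Tac146 (edgeR adjusted p = 0.164). Summed with its copy, mt-Co1 was at 37316, 33921 and 38303 CPM in Tac111. The sums were 29880, 27988 and 24933 in Tac146 and 26272, 28189 and 26694 in B6, again below Tac111 without overlap. The log2 fold change of the sum was 0.43 ± 0.16 against B6 (edgeR adjusted p = 0.157) and 0.40 ± 0.16 against Tac146 (edgeR adjusted p = 0.116). With the copy added, mt-Co2 was at 11549, 11568 and 14440 CPM in Tac111, 10125, 8999 and 8151 in Tac146, and 8777, 9081 and 8555 in B6. Its log2 fold change against B6 was 0.51 ± 0.15 with the copy (edgeR adjusted p = 0.0944) and 0.38 ± 0.13 without (edgeR adjusted p = 0.149).

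The mt-Co3 value depended on the assignment. Alone, its log2 fold change in Tac111 against Tac146 was 1.06 ± 0.33 (edgeR adjusted p = 0.0652), and 1 library carried it, as the copy received 72.1% in Tac111 replicate 1 and 87.0 to 91.5% elsewhere. With the copy, the value was 0.48 ± 0.16 (edgeR adjusted p = 0.0766).

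Complex I subunits made in mitochondria did not move together. The levels of mt-Nd1 were 5956, 5572 and 5647 CPM in Tac111, 5461, 5121 and 4771 in Tac146, and 4910, 5189 and 4835 in B6. For mt-Nd2 they were 5333, 4750 and 4956 in Tac111, 4592, 4617 and 3980 in Tac146, and 4484, 4668 and 4398 in B6. In both genes the Tac111 libraries lay above the 6 others. By contrast, mt-Nd5 was at 4844, 3597 and 2592 CPM in Tac111 against 3699 to 4402 in the 6 other libraries, so that Tac111 held both the highest and the lowest value. The same held for mt-Nd4, at 7166, 6072 and 5189 CPM in Tac111 against 5717 to 6312 elsewhere.

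The short members mt-Atp8 and mt-Nd4l were lowest in Tac111 replicate 3. The complex V subunit mt-Atp8 (chrM:7766-7969) has no copy among the 7 pairs. It lies between mt-Co2 and mt-Atp6, which have copies, and overlaps the start of mt-Atp6 (chrM:7927-8607). Copies were sought among annotated transcripts only, so its level may also depend on how reads were assigned. For mt-Atp8 the levels were 1491, 1118 and 655.8 CPM in Tac111, 1621, 1931 and 1525 in Tac146, and 1616, 1689 and 1688 in B6. Tac111 lay below both strains, with a log2 fold change of -0.61 ± 0.24 against B6 (edgeR adjusted p = 0.177). With its copy, mt-Nd4l was at 783.4, 598.7 and 304.4 CPM in Tac111, 732.3, 820.4 and 963.7 in Tac146, and 759.1, 852.5 and 812.8 in B6. Counted without copies, mt-Nd3, mt-Co2, mt-Atp6 and mt-Nd6 had their highest levels in Tac111 replicate 3, at 238.1, 613.6, 688.1 and 147.7 CPM. Of the 7 paired genes counted with their copies, mt-Nd3, mt-Co1, mt-Co2 and mt-Co3 were highest there. With its copy, mt-Nd3 was at 1065, 988.2 and 1314 CPM in Tac111, 1009, 1142 and 824.7 in Tac146, and 1033, 843.6 and 866.4 in B6, with overlap between all strains. For mt-Nd6 the levels were 117.1, 101.5 and 147.7 CPM in Tac111, 104.2, 98.7 and 70.7 in Tac146, and 113.5, 105.5 and 75.2 in B6, also with overlap.

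Of the remaining members, mt-Cytb of complex III was at 10273, 9425 and 9755 CPM in Tac111, 8326, 8312 and 7723 in Tac146, and 8051, 8353 and 8111 in B6, with every Tac111 library above the others. With its copy, mt-Atp6 was at 8417, 7747 and 8223 CPM in Tac111, 8128, 8186 and 6945 in Tac146, and 7538, 7518 and 7462 in B6. Its Tac111 and Tac146 ranges overlapped.

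The ratio of mitochondrial to nuclear member counts did not separate the strains. It was 2.94, 3.68 and 3.32 in B6, 4.01, 3.45 and 2.69 in Tac111, and 3.70, 3.57 and 4.05 in Tac146. The lowest ratio was in Tac111 replicate 3 and the highest in Tac146 replicate 4. With the chromosome 1 copies added, the ratio was 4.556, 5.507 and 5.025 in B6 and 5.904, 5.406 and 4.65 in Tac111. In Tac146 it was then 5.724, 5.48 and 6.032, with overlap between all strains. The lowest ratio with copies was in B6 replicate 1 and the highest again in Tac146 replicate 4.

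Genes of the same pathway outside the members were read from 9 lists with 125 tested genes. Among these 0 were called in Tac111 against B6, 1 was called lower in Tac146 against B6, and 18 were called higher in Tac111 against Tac146, with 0 lower. Over all genes, 3.81, 0.303 and 8.89% were called in either direction, the last with 2.62% higher. The median log2 fold changes of the 125 were 0.15, -0.12 and 0.27 in the same order. Among electron carriers, 3 of 15 were called, of which Coq10a, a coenzyme Q binding protein, was at 165.8, 150.7 and 196.6 CPM in Tac111 and 114.4, 117.9 and 86.4 in Tac146. Its log2 fold change was 0.69 ± 0.13 (edgeR adjusted p = 0.0149). Coq7 and Coq3, enzymes of coenzyme Q synthesis, were the others.

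Complex assembly factors outside the members gave 6 calls. Tmem126a and Dmac2 were 2 of 11 for complex I, Sdhaf4 and Uqcc1 2 of 10 for complexes II and III, Cox20 1 of 24 for complex IV, and Tmem70 1 of 5 for complex V. Among genes of mitochondrial DNA transcription and RNA upkeep, 3 of 21 were called, Slirp, Fastk and Ssbp1. The citric acid cycle gave 3 of 18, Dld, Suclg1 and Pdhx. Among exchange genes 2 of 11 were called, Ckmt2, the mitochondrial creatine kinase of striated muscle, and Nnt. The transhydrogenase Nnt was the gene called in Tac146 against B6, at 28.4, 31.1 and 21.2 CPM in Tac146 against 91.4 to 101.6 in the 6 other libraries.

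Of the regulators of mitochondrial content, 1 of 10 was called. Perm1, a muscle regulator of mitochondrial genes, was at 86.4, 93.3 and 101.3 CPM in Tac111 and 74.0, 70.4 and 61.4 in Tac146, a log2 fold change of 0.45 ± 0.10 (edgeR adjusted p = 0.0268). In that list 4 of 10 values lay above 0, with a median of -0.05.

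Promoter windows were read for 73 nuclear members from RefSeq (GRCm38.p6, 250 bases before to 50 after the start), since the members moved together. Motifs of factors known to act on many of these genes, and an E-box as found near muscle genes, were searched on both strands. GCATGCGC (NRF1) occurred in 12 of the 73 (16.4%) against 3.05% of 27025 genes. CCGGAAG (the ETS family, with GABPA) occurred in 17 (23.3%) against 9.93%, and AAGATGGCG (YY1) in 8 (11.0%) against 1.64%. At least 1 of these 3 was present in 30 members (41.1%) and in 13.6% of all genes. Among the 17 called members with a window, 3 held the NRF1, 3 the ETS and 4 the YY1 letters, against 12, 17 and 8 of all 73. A difference between called and other members was not tested. The E-box CAGCTG occurred in 8.22% of members and 18.3% of all genes, and TNAAGGTCA (ERR) in 4.11% and 1.43%. A match is a description of the letters and not a bound site.

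The stretches below show the YY1 letters of the 4 called members and the upstream NRF1 letters of Ndufaf4, the member with the smallest p, in capitals on the strand of the gene. They are Ndufc1 (chr3:51408915-51408944, minus strand), Ndufs4 (chr13:114388045-114388074, minus strand), Ndufs6 (chr13:73328433-73328462, minus strand), Ndufs7 (chr10:80249462-80249491, plus strand) and Ndufaf4 (chr4:24897959-24897988, plus strand). The YY1 letters lie after the start of the gene, at 22 bases in Ndufc1, 35 in Ndufs4, 33 in Ndufs6 and 24 in Ndufs7. They hold the letters ATG, and whether they overlap the start codon was not tested. In Ndufaf4 the NRF1 letters overlap on both strands, which makes the run of capitals longer.
Ndufc1: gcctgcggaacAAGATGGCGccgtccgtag
Ndufs4: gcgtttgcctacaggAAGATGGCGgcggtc
Ndufs6: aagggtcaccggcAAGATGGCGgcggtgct
Ndufs7: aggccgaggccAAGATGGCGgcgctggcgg
Ndufaf4: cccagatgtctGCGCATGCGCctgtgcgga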

How the data were processed

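The 9 files hold expected counts per gene symbol, which need not be whole, as deposited. Per the submitters' processing notes, the authors used STAR, RSEM and GRCm38. No version, annotation or setting for strand is stated there. Reads of overlapping, antisense or near-identical genes may therefore have been split between them. Per the labels' protocols, libraries were made from polyadenylated RNA and kept strand.

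Counts of repeated symbols were summed and rounded. EdgeR 4.0.16 in R 4.3.3 (TMM factors, its own expression filter, quasi-likelihood test) modelled the 9 libraries together by strain, which left 6 residual degrees of freedom. Adjustment ran over all 16523 tested genes, and calls needed an adjusted p under 0.05. SEs were derived from the fold change and its F statistic and are approximate. CPM use TMM-scaled library sizes, and shares use unscaled counts. The fit was tested on simulated data with 200 changed genes. Libraries of 1 strain differed beyond sampling noise (chi-square per degree of freedom 14.6 to 86.4), and each was used as its own replicate.

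Members and lists were chosen with earlier results of these data known. Named with values were all mitochondrial members, and up to 8 called nuclear members per comparison with the smallest p. So were the 2 smallest p and the highest level per length in each class, and the isoform sets. Up to 3 called genes per pathway list were named, with values for Coq10a, Nnt and Perm1 alone. An item named by this rule is not reported here. Transcript lengths, coordinates and copies came from GENCODE M21 by symbol, with coordinates for 108 members. Copies were transcripts with 98% identity or more over 200 bases or more. The pseudogene-marked Ndufb1-ps, at 60.1 to 118.9 CPM, was left out by the rule, and Ndufb4 and Ndufb4c may share reads. Alternatives changed the factors (median-ratio, upper-quartile), the genes (no mitochondrial genes, no filter, 1 CPM in 3 libraries), the tool (DESeq2 1.42.0), the model (replicate block, robust dispersions) and the libraries (only the 6 compared, each left out). Merging genes with their copies, and leaving out Tac111 replicate 3 with Tac146 replicate 4, were added after seeing the data.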

Additional observations from a re-analysis of the deposited data

How the results depend on the processing

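In Tac111 against Tac146, the 20 called nuclear members became 66 with DESeq2, 54 without a filter on low counts, 1 in a fit to the 6 libraries compared, 0 with a replicate block and 0 with Tac111 replicate 3 and Tac146 replicate 4 both left out. Leaving out each library in turn gave 0 to 15. The DESeq2 calls, made where 2568 of 16916 genes were called over all, held all 20 and the calls without a filter 19 of them. Between 15 and 26 were called under the other scalings and filters, with robust dispersions, with mitochondrial genes left out and with copies merged. No alternative called a nuclear member lower in any comparison, or higher in Tac146 against B6. The median log2 fold change of nuclear members in Tac111 against Tac146 was 0.20 with both libraries left out and 0.30 to 0.53 with each library left out.

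In Tac111 against B6, DESeq2 called 3 nuclear and 3 mitochondrial members and the fit without a filter 2 and 2. The replicate block called 1 mitochondrial member, mt-Nd3. Leaving out each library gave 0 to 1 nuclear members. In Tac111 against Tac146, 3 mitochondrial members were called with DESeq2, 2 without a filter and 0 to 1 with each library left out. The block called no other member. Same-numbered libraries of different strains had correlations of -0.16 to 0.28 in their deviations from the strain means, and libraries of other numbers -0.39 to 0.33. With 3 libraries per strain, these values cannot decide whether the replicate numbers pair the libraries.

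Over all genes, the 630 calls in Tac111 against B6 became 1171 with DESeq2, 1020 without a filter and 295 to 958 with each library left out. The 50 in Tac146 against B6 became 126, 129 and 33 to 64, and 26 in the 6 libraries compared. The 1469 in Tac111 against Tac146 became 2568 with DESeq2, 786 with both libraries left out, 641 in the 6 libraries compared, 632 with the replicate block and 470 to 1829 with each library left out.

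Some log2 fold changes changed sign, none of them called. Those farthest from 0 at the outset were mt-Nd4l at -0.41 and mt-Nd3 at 0.29 in Tac111 against Tac146, and mt-Co3 at -0.23 and mt-Nd4l at -0.22 in Tac146 against B6. In Tac111 against B6, leaving out both libraries gave -0.0069 for Cox4i2, -0.0024 for Cox7a1 and 0.083 for mt-Nd5. Cox8a was at 0.0008 with the filter of 1 CPM, 0.0006 with the block and 0.028 with upper-quartile factors. For mt-Atp6 the value was 0.12 with its copy merged and 0.021 with upper-quartile factors. In Tac146 against B6, leaving out both libraries gave 0.015 for mt-Atp6, 0.025 for mt-Cytb, 0.027 for mt-Nd2 and 0.047 for mt-Nd6. The block gave 0.012 for mt-Co3, 0.037 for mt-Cytb, 0.048 for mt-Nd2, 0.039 for mt-Nd4 and 0.095 for mt-Nd6. Merged copies gave 0.047 for mt-Atp6 and 0.054 for mt-Nd4l. In Tac111 against Tac146, leaving out both libraries gave -0.15 for mt-Atp6, -0.025 for mt-Nd3, 0.039 for mt-Nd4l and 0.069 for mt-Nd5, and the block gave -0.010 for mt-Atp6 and -0.029 for mt-Nd4.

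With each library left out in Tac111 against B6, values ran from -0.0066 to 0.12 for Cox4i2, -0.0021 to 0.29 for Cox7a1, -0.074 to 0.062 for Cox8a, -0.16 to 0.084 for Ndufa4l2, -0.13 to 0.070 for mt-Atp6, -0.11 to 0.13 for mt-Nd4 and -0.36 to 0.083 for mt-Nd5. In Tac146 against B6 they ran from -0.22 to 0.042 for Cox4i2, -0.0098 to 0.13 for Cox8a, -0.19 to 0.016 for mt-Atp6, -0.081 to 0.094 for mt-Atp8, -0.020 to 0.095 for mt-Co1 and -0.036 to 0.026 for mt-Cytb. For mt-Nd1 they were -0.017 to 0.088, for mt-Nd2 -0.079 to 0.028, for mt-Nd4 -0.062 to 0.0013 and for mt-Nd6 -0.26 to 0.048. In Tac111 against Tac146 they ran from -0.050 to 0.18 for mt-Atp6, -0.073 to 0.16 for mt-Nd4 and -0.42 to 0.025 for mt-Nd5. The cause of these changes was not tested.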
